A study of Mus musculus with 9 samples.

Results

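The genes described here are 48 genes of the lysosome: hydrolases, their activators and proteases, membrane and transport proteins, proton pump subunits, the transcription factors of the TFEB family (Tfeb, Tfe3 and Mitf), and 2 genes often read beside them, Sqstm1 and Grn. They were chosen by name, as a list, with the question whether a rise of Gla in hyperoxia was shared by other lysosomal genes. Each of the 48 names matched 1 mouse gene among 56620 genes and assembled loci, and all 48 were among the 13831 genes tested, those whose mean over the libraries reached 1 FPKM. The level used is FPKM (fragments per kilobase of transcript, relative to the depth of the library), summed over a gene's transcripts and scaled between libraries, so levels can be compared between genes per length.

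The cells were mouse primary cells from a commercial supplier that the labels call PMVECs, the microvascular endothelial cells of the lung. They were kept for 48 h in 1 of 3 conditions, with 3 libraries of total RNA each. RA was room air at 21% oxygen, HO was hyperoxia at 85% oxygen, and HO-rWNT5A was hyperoxia at 85% oxygen with 100 ng/ml recombinant WNT5A, a secreted WNT ligand. Whether the 3 libraries of a condition are separate cultures is not stated. A p-value here measures only how these libraries vary, and that variation may be technical. The labels give no strain, sex, age or passage.

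Lysosomes are acidic organelles in which hydrolases take apart sugars, lipids and proteins. A proton pump, the V-ATPase, keeps them acid, and membrane proteins such as LAMP1 and LAMP2 line them. TFEB and TFE3 are held in the cytoplasm when the kinase mTORC1 is active, and enter the nucleus during starvation or lysosomal damage, where they bind an E-box called the CLEAR element in the promoters of many lysosomal genes. Their activity is set largely by where the protein lies, so their own RNA is only 1 side of it.

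Of 14 endothelial markers, 10 averaged under 1 FPKM, and Pecam1 stood at 0.0932 and Cdh5 at 0.0544 FPKM, whereas Flt1 stood at 38 and Emcn at 10.1 FPKM. Of 10 pericyte and smooth muscle markers, 7 were at 5 FPKM or more. The endothelial markers summed to 51.1 to 59.5 FPKM over the RA and HO libraries and 42.7 to 53.6 in HO-rWNT5A. The pericyte and smooth muscle markers summed to 2430 to 3310 FPKM over all 9. Most of that sum was Acta2, Tagln and Des, which averaged 1580, 888 and 367 FPKM. Myh11, Rgs5 and Kcnj8 averaged under 1 FPKM, at 0.237, 0.759 and 0.0376. The sum of 8 fibroblast markers was lower in hyperoxia without overlap, at 264 to 282 FPKM (RA), 214 to 263 (HO) and 191 to 263 (HO-rWNT5A), and its part in the results below was not tested. Of these 8, 5 averaged under 1 FPKM. The sum therefore mostly reflects the collagen genes Col1a1, Col1a2 and Col3a1, which averaged 184, 45.3 and 16.8 FPKM. The sum of 9 epithelial markers was 80.9 to 108 FPKM over the 9 libraries. It mostly reflects the keratin genes Krt18 and Krt8, which averaged 54.8 and 31.3 FPKM. Cdh1 averaged 3.79 and Epcam 1.89 FPKM, 5 of the 9 averaged under 1 FPKM, and of these Sftpc and Scgb1a1 were listed at 0. The endothelial label was therefore not borne out by most of its defining markers, and the cells are called the labelled PMVECs here. Of 12 macrophage and leukocyte markers, from cells rich in lysosomes, 9 averaged under 1 FPKM, no average reached 5 FPKM, the highest values in a single library were 8.75 (Lyz2) and 5.14 (Cd14), and Marco was listed at 0. Summed, they ranged over 10.3 to 12 FPKM (RA), 9.55 to 17.3 (HO) and 8.09 to 15.5 (HO-rWNT5A), beside 2210 to 2550 FPKM for the 48 genes together. In such bulk libraries, fewer cells of a type and less RNA per cell cannot be told apart.

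To show what the promoters of the genes look like, the table of RefSeq promoters (GRCm38.p6, 250 bases before to 50 bases after each annotated start) was searched for 3 nested motifs, each a palindrome and so the same on both strands. The table held 42 of the 48 genes. The long form of the CLEAR element was in 0.326% of 32851 promoters and in none of the 42. Its core TCACGTGA was in 0.974% of promoters, or 1.12% of 27025 genes, and in 6 of the 42 (14.3%): Gla, Ctsa, Ctsd, Mcoln1, Atp6v0d1 and Atp6v1a. The E-box CACGTG, which every TCACGTGA also holds, was in 7.15% of promoters, or 8.09% of genes, and in 15 of the 42 (35.7%). A match describes letters in a window and does not show that a factor binds there.

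The sites are printed because Gla, the gene the question starts from, holds TCACGTGA in duplicate. Each line gives 30 bases, 5′ to 3′ on the strand of the gene, with the motif in capitals, for all the listed genes that hold TCACGTGA and for the single CACGTG of Ctsf.
Gla, distal site: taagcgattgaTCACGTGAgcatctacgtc
Gla, proximal site: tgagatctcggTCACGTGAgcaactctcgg
Ctsa, upstream site: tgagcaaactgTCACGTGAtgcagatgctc
Ctsa, downstream site: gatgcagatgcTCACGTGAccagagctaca
Ctsd: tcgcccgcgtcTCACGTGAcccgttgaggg
Mcoln1: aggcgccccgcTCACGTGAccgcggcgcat
Atp6v0d1: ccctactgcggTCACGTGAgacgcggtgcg
Atp6v1a: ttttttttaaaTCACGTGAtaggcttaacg
Ctsf: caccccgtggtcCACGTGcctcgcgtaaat
The Gla windows lie at chrX:134601215-134601244 and chrX:134601182-134601211 on the minus strand, with motifs at -228 to -221 and -195 to -188 from the RefSeq start. Those of Ctsa lie at chr2:164833749-164833778 and chr2:164833766-164833795 on the plus strand. That of Ctsd lies at chr7:142387908-142387937 (minus), that of Mcoln1 at chr8:3500462-3500491 (plus) and that of Ctsf at chr19:4855074-4855103 (plus). Those of Atp6v0d1 and Atp6v1a lie at chr8:105566050-105566079 and chr16:44139373-44139402, both on the minus strand.

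Fuca1, which rose beside Gla (below), held no CACGTG in its window. Its 250 bases before the RefSeq start, chr4:135920476-135920725 on the plus strand, are printed whole as an example. Whether the motif bears on either rise was not tested.
Fuca1: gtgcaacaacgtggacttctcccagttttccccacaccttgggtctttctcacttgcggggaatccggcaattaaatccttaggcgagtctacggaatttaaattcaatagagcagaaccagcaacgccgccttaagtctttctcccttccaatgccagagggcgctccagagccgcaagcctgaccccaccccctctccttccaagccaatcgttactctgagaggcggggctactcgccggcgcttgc
Among the 6 genes with TCACGTGA, the log2 fold change in HO against RA ran from -0.17 (Mcoln1) to 1.05 (Gla) with a median of 0.01. The 1 that passed the test was Gla, whose rise was known when the list was drawn up. Among the 36 without it the median was -0.02, and 2 passed. Over all genes tested the median was -0.01, and 1.97% passed. Counts this small cannot show whether genes with and without the motif differed. With the shorter CACGTG the medians were 0.01 over 15 genes and -0.02 over 27.

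In the room-air cells the levels spanned from about 1 to over 300 FPKM. The aspartic protease gene Ctsd was highest at 313 ± 12.2 FPKM (SD, n = 3), followed by Lamp1 at 210 ± 12.8, Cd63 (a tetraspanin of late endosomes) at 206 ± 2.9, Sqstm1 at 206 ± 3.3, Psap at 185 ± 12.6 and Ctsl at 178 ± 5.14 FPKM. Lamp1, Cd63 and Sqstm1 overlapped in their libraries, as did Lamp1 with Psap and Psap with Ctsl, so the order of these neighbours is not clear. At the low end, Mitf stood at 1.19 ± 0.0961 FPKM, Gla at 1.21 ± 0.371 and Idua, the iduronidase of dermatan and heparan sulphate, at 1.32 ± 0.114. Gla was thus among the least abundant of the 48 in room air, and these 3 overlapped.

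Hyperoxia was compared with room air first. The rise of Gla was not a rise of the lysosomal genes as a group: Gla, Fuca1 and Ctsf were higher in HO, none of the 48 was lower, and 45 did not pass the test. The 3 make 6.25% of the 48, beside 1.97% of all genes tested, of which 1.19% were higher and 0.788% lower (limma, Benjamini-Hochberg adjusted over 13831 genes). Because Gla's rise was known when the list was drawn up, the count was also taken without it: 2 of 47 passed, or 4.26%. At an unadjusted p under 0.05, 4 of the 48 were higher and 5 lower, 18.8% in all, beside 18.2% of all genes (9.43% higher and 8.77% lower). The median log2 fold change of the 48 was -0.02, beside -0.01 for all genes, and 44 of the 48 lay within 0.25 of 0. Of the 48, 26 had an estimate below 0 (54.2%), beside 51.8% of all genes. That count and the sign of the median moved with single libraries: 36 were below 0 when HO replicate 2 was left out (median -0.05), 21 when HO replicate 1 was (0.03), 21 when HO replicate 3 was (0.01) and 16 when RA replicate 1 was (0.03). The HO and RA libraries did not overlap for 5 genes that were higher and 5 that were lower, where 21.5% of all genes did not overlap (11.1% higher and 10.4% lower).

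**Figure D1:**
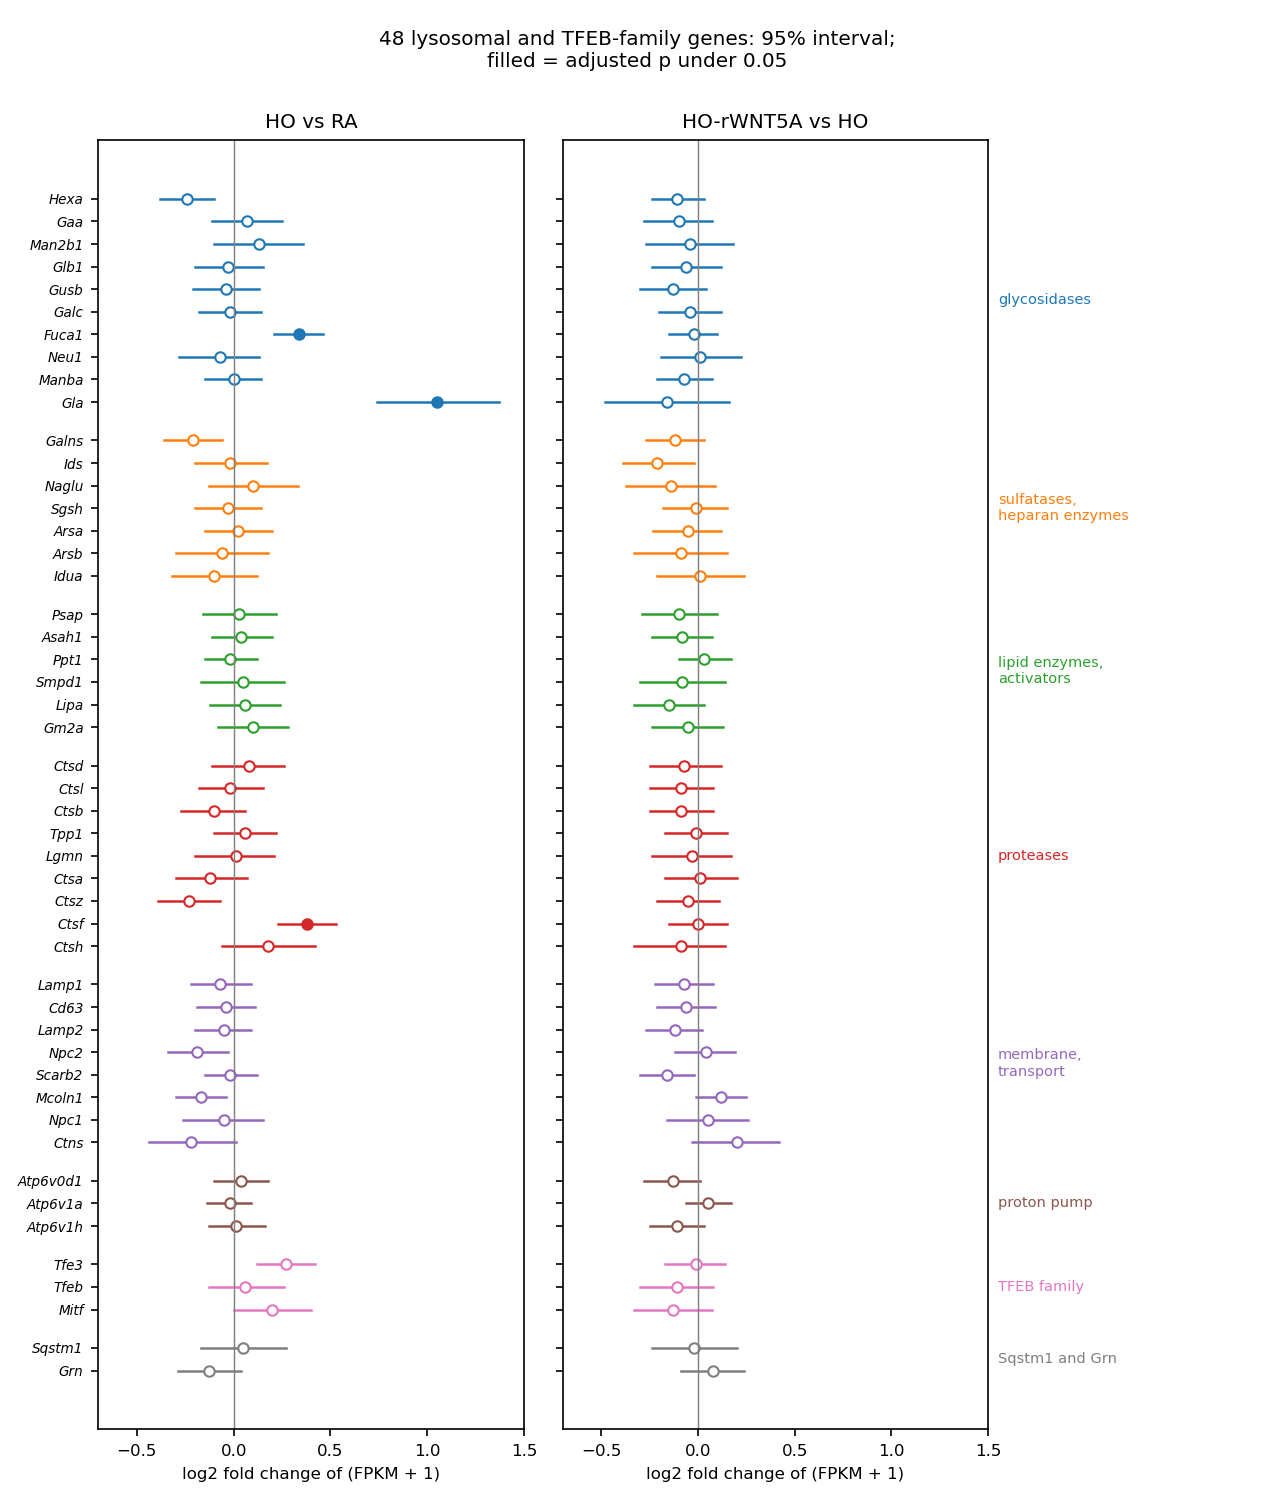
Log2 fold change of (FPKM + 1) for each of the 48 genes (vertical axis, grouped and coloured by role, most abundant first) in HO against RA (left) and HO-rWNT5A against HO (right). Circles are estimates, bars 95% intervals, and filled circles passed the test; only Gla, Fuca1 and Ctsf are filled on the left, and none on the right.

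Gla encodes alpha-galactosidase A, which removes terminal galactose from globotriaosylceramide and is the enzyme lacking in Fabry disease (ENSMUSG00000031266, chrX:134588149-134601125, minus strand, GRCm38). Its level was 1.28, 0.804 and 1.53 FPKM in the RA libraries, 3.08, 4.31 and 3.32 in HO, then 3.14, 3.43 and 2.66 in HO-rWNT5A. Every hyperoxic library, with or without WNT5A, lay above every room-air library. The mean in HO was 2.96 times that in RA, and the log2 fold change was 1.05 with a 95% interval of 0.74 to 1.37 (adjusted p = 0.0119). The highest upper bound among the other 47 genes was 0.53, that of Ctsf. Gla's low level gives it few fragments: roughly 53 to 98 per RA library and 215 to 271 per HO library on its main transcript. Among fits that kept more than 1 HO library, the call was lost without RA replicate 1 (adjusted p = 0.0547) or RA replicate 2 (0.0643). It was also lost with no filter on low values (0.0605), and each of these log2 fold changes was above 0.90. With HO replicate 1 as the only HO library, the log2 fold change was 0.901.

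**Figure D2:**
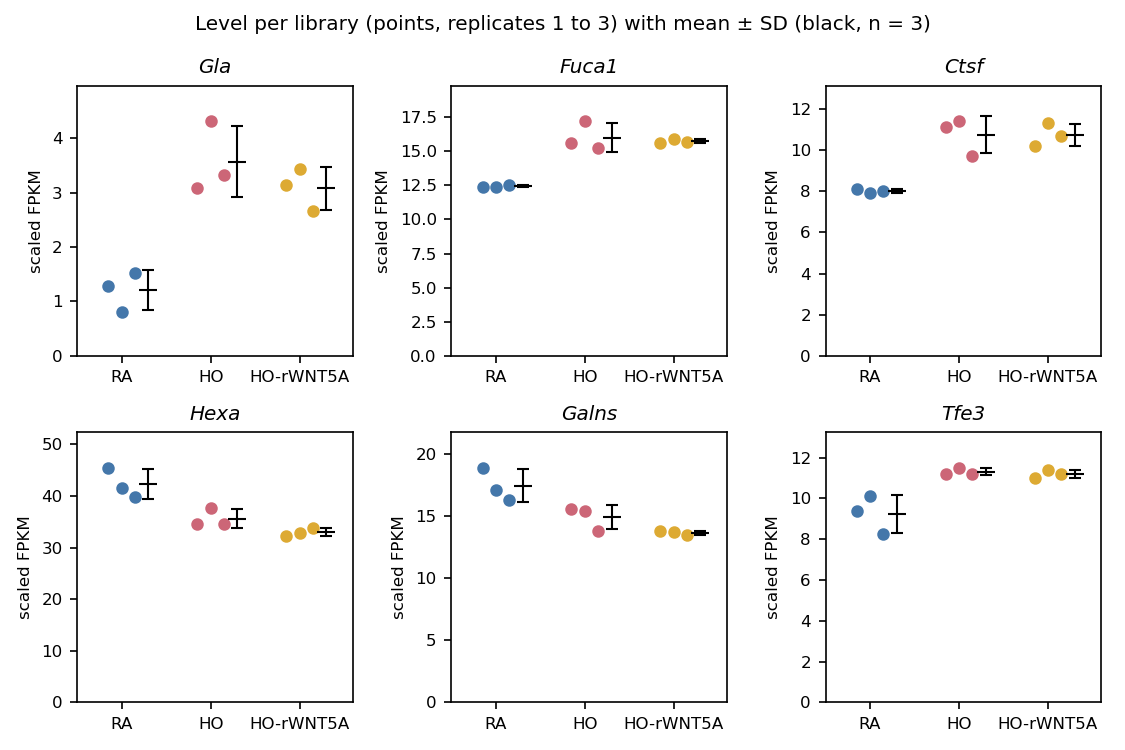
Scaled FPKM (vertical axes, from 0) of Gla, Fuca1, Ctsf, Hexa, Galns and Tfe3 in the 3 libraries of RA, HO and HO-rWNT5A (points), with the mean and SD beside them (black). The hyperoxic points of Gla, Fuca1, Ctsf and Tfe3 all lie above the room-air points, and those of Hexa and Galns below them.

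Among the 10 glycosidases, Gla and Fuca1 passed in HO against RA, and none of the others did. Fuca1 encodes the fucosidase that strips fucose from glycoproteins and glycolipids (ENSMUSG00000028673, chr4:135920735-135940311). It stood at 12.4, 12.4 and 12.5 FPKM in RA, 15.6, 17.2 and 15.2 in HO, then 15.6, 15.9 and 15.7 in HO-rWNT5A, so the room-air libraries were close together and the hyperoxic libraries all above them. Its log2 fold change was 0.34 (95% interval 0.21 to 0.46, adjusted p = 0.0213). The call was lost when any 1 of the RA libraries was left out, with an adjusted p of 0.0749 without replicate 1, 0.0958 without replicate 2 and 0.0851 without replicate 3.

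Hexa, which encodes the alpha subunit of the hexosaminidase that degrades GM2 ganglioside, went the other way in its values (ENSMUSG00000025232, chr9:59539540-59565109). It stood at 45.5, 41.5 and 39.9 FPKM in RA, 34.5, 37.7 and 34.6 in HO, then 32.3, 32.8 and 33.8 in HO-rWNT5A, with no overlap between RA and either hyperoxic group. Its log2 fold change in HO against RA was -0.24 (95% interval -0.38 to -0.10, adjusted p = 0.0792), which did not pass. Among the other fits it passed only with FPKM as deposited (adjusted p = 0.029), where the median of all genes was -0.057. Hexa shares 255 of its 1996 exon bases with Tmem202 on the opposite strand, which averaged 1.52 FPKM. The use of strand in the counting is not stated, and the part of this overlap in Hexa's values was not tested. The other 7 glycosidases (Glb1, Gaa, Gusb, Galc, Neu1, Manba and Man2b1) had log2 fold changes from -0.07 for Neu1, the sialidase, to 0.13 for Man2b1, an alpha-mannosidase, and overlapped between HO and RA. Gaa, the acid glucosidase of glycogen, stood at 24.8 ± 1.23 FPKM in RA and 26.2 ± 3.14 in HO (SD, n = 3).

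None of the 7 sulfatase and heparan enzyme genes passed in HO against RA (median -0.03). Galns, the sulfatase of keratan sulphate, was the lowest of them by log2 fold change (ENSMUSG00000015027, chr8:122578242-122611463). It stood at 18.9, 17.1 and 16.3 FPKM in RA, 15.6, 15.4 and 13.8 in HO, then 13.8, 13.7 and 13.5 in HO-rWNT5A, a log2 fold change of -0.21 in HO against RA (95% interval -0.36 to -0.06, adjusted p = 0.144). Idua stood at 1.45, 1.26 and 1.24 FPKM in RA, 1.3, 0.961 and 1.23 in HO, then 1.19, 1.03 and 1.34 in HO-rWNT5A, with all groups overlapping. Arsa, Arsb, Sgsh, Ids and Naglu, which act on sulphated lipids and glycosaminoglycans, had log2 fold changes from -0.06 to 0.1.

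The 6 genes for lipid enzymes and their activators had log2 fold changes from -0.02 for Ppt1 to 0.1 for Gm2a in HO against RA, and none passed. Gm2a, the activator that presents GM2 ganglioside to hexosaminidase, stood at 5.89, 5.91 and 6.11 FPKM in RA, 6.68, 7.05 and 5.69 in HO, then 6.62, 5.71 and 6.21 in HO-rWNT5A. Lipa, the acid lipase of cholesteryl esters, stood at 9.15, 7.95 and 7.64 FPKM in RA, 8.4, 8.75 and 8.65 in HO, then 6.98, 7.67 and 8.44 in HO-rWNT5A. Psap, the precursor of the saposins, stood at 199, 182 and 174 FPKM in RA, 177, 216 and 176 in HO, then 173, 179 and 177 in HO-rWNT5A. All 3 overlapped between HO and RA, and HO replicate 2 was the highest hyperoxic library for each. One of the saposins is the activator of alpha-galactosidase A, and the log2 fold change of Psap was 0.03 (95% interval -0.16 to 0.22).

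Of the 9 proteases, Ctsf alone passed in HO against RA. It encodes cathepsin F, a cysteine protease (ENSMUSG00000083282, chr19:4855130-4860918). It stood at 8.1, 7.91 and 8.01 FPKM in RA, 11.1, 11.4 and 9.71 in HO, then 10.2, 11.3 and 10.7 in HO-rWNT5A, again with every hyperoxic library above every room-air library. Its log2 fold change was 0.38 (95% interval 0.23 to 0.53, adjusted p = 0.0276). This was the least stable of the 3 calls, being past the threshold under 13 of 24 alternatives. Left-out libraries that ended it were each of the RA replicates (adjusted p = 0.0811, 0.112 and 0.0987 for replicates 1, 2 and 3), HO replicate 1 (0.0578) and HO replicate 2 (0.0713). When only protein-coding transcripts were summed, the log2 fold change was 0.81 and the adjusted p 0.128.

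Ctsz, cathepsin Z, had values in the opposite direction, at 30, 27.6 and 27 FPKM in RA, 25.1, 25.4 and 21.4 in HO, then 23, 23.7 and 22.7 in HO-rWNT5A. The hyperoxic libraries all lay below those of room air, with a log2 fold change of -0.23 (adjusted p = 0.133) in HO. Ctsd, the most abundant of the 48, stood at 324, 315 and 300 FPKM in RA, 312, 375 and 307 in HO, then 303, 324 and 319 in HO-rWNT5A, a log2 fold change of 0.08 (95% interval -0.11 to 0.26). The cathepsins thus gave values on both sides of 0: Ctsh 0.18, Ctsl -0.02, Ctsb -0.1 and Ctsa -0.12, all overlapping between HO and RA. Tpp1, a tripeptidyl peptidase, and Lgmn, the asparaginyl protease legumain, had log2 fold changes of 0.06 and 0.01.

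All 8 genes for membrane and transport proteins had log2 fold changes below 0 in HO against RA, from -0.22 for Ctns, the cystine carrier, to -0.02 for Scarb2, and none passed. That direction was held by 6 to 8 of the 8 when single libraries were left out, and Ctns passed without HO replicate 3 (-0.35, adjusted p = 0.0295). Mcoln1, a calcium channel of the lysosome, stood at 17.3, 18.2 and 19 FPKM in RA, 15.2, 16.1 and 16.9 in HO, then 17.4, 17.6 and 17.6 in HO-rWNT5A. HO was below both other groups without overlap, with a log2 fold change of -0.17 against RA (adjusted p = 0.161). Npc2, which hands cholesterol to NPC1, stood at 49.2, 51.3 and 53 FPKM in RA, 49, 45.3 and 40.7 in HO, then 47.2, 46.9 and 44.1 in HO-rWNT5A (-0.19 in HO against RA, adjusted p = 0.197). Lamp1 stood at 223, 210 and 198 FPKM in RA, 190, 215 and 197 in HO, then 187, 192 and 195 in HO-rWNT5A. Its HO and RA libraries overlapped, and its log2 fold change was -0.07 (95% interval -0.22 to 0.09).

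The 3 V-ATPase subunit genes had log2 fold changes of -0.02 to 0.04 in HO against RA. Atp6v0d1, of the membrane sector, stood at 70.7, 68.5 and 62.6 FPKM in RA, 68.1, 74.2 and 65.6 in HO, then 61.9, 64.5 and 62.8 in HO-rWNT5A. Atp6v1a, the catalytic subunit, stood at 42.6, 40.9 and 39.5 FPKM in RA, 39.3, 41.4 and 40.2 in HO, then 41, 41.5 and 43 in HO-rWNT5A. Both overlapped between HO and RA, and the 95% interval for Atp6v1a was -0.14 to 0.09.

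In the TFEB family, no gene passed in HO against RA, and all 3 estimates were above 0. Tfe3 stood at 9.38, 10.1 and 8.25 FPKM in RA, 11.2, 11.5 and 11.2 in HO, then 11, 11.4 and 11.2 in HO-rWNT5A. Every hyperoxic library lay above every room-air library, and the log2 fold change was 0.27 (95% interval 0.12 to 0.42, adjusted p = 0.08), which passed under none of 24 alternatives. Tfeb stood at 3.66, 3.67 and 3.3 FPKM in RA, 3.62, 3.6 and 4.03 in HO, then 2.94, 3.67 and 3.63 in HO-rWNT5A, with overlap throughout (0.06, adjusted p = 0.737). Mitf, best known from pigment cells, stood at 1.3, 1.12 and 1.14 FPKM in RA, 1.58, 1.5 and 1.45 in HO, then 1.11, 1.44 and 1.35 in HO-rWNT5A (0.20 in HO, adjusted p = 0.276). Its HO libraries lay above all of the others, and those of HO-rWNT5A overlapped RA. These are RNA levels and say nothing of where the proteins lay.

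Sqstm1, the autophagy receptor p62, stood at 202, 207 and 207 FPKM in RA, 206, 254 and 184 in HO, then 217, 202 and 211 in HO-rWNT5A. The HO libraries spanned those of RA on both sides. Grn, the precursor of the lysosomal granulins, stood at 58.9, 51.2 and 49.5 FPKM in RA, 45.9, 52.7 and 47.1 in HO, then 51.6, 50.1 and 51.7 in HO-rWNT5A. Neither passed, with log2 fold changes of 0.05 and -0.13 in HO against RA.

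**Figure D3:**
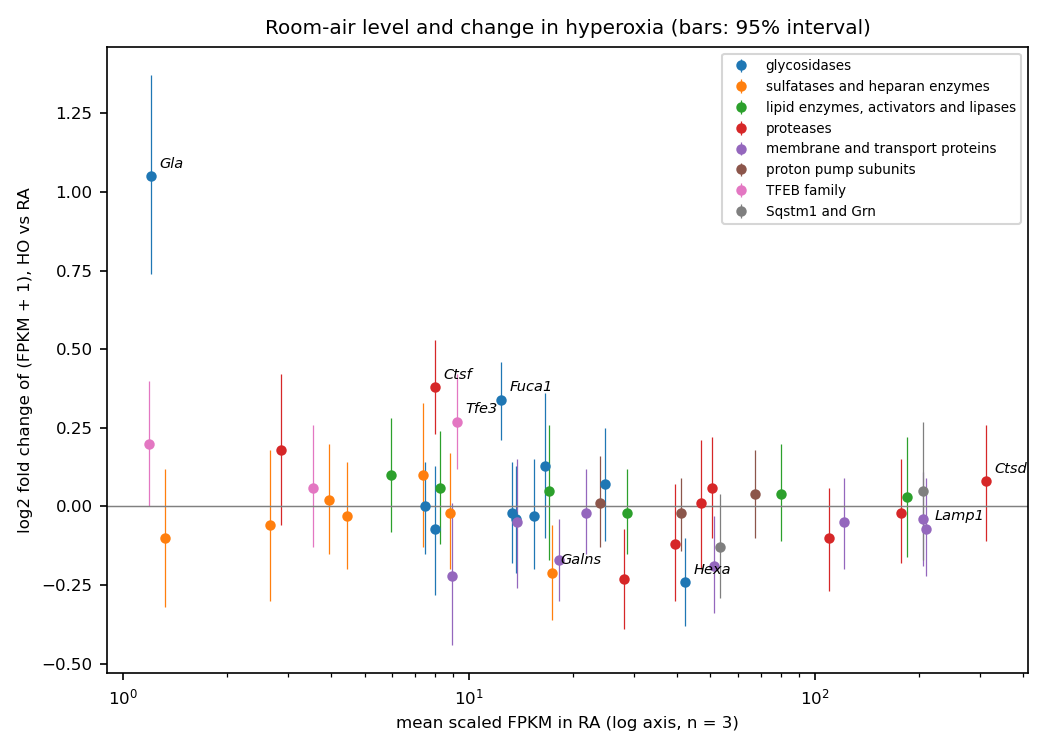
Log2 fold change of (FPKM + 1) in HO against RA (vertical axis, with 95% intervals) against the mean room-air level in scaled FPKM (horizontal log axis, n = 3) for the 48 genes, coloured by role. Gla stands alone at 1.05 near the low end of the levels, and the most abundant genes, Ctsd and Lamp1, lie close to 0.

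Recombinant WNT5A was then compared with hyperoxia alone, which asks whether the ligand moves these genes further or back. None of the 48 passed in HO-rWNT5A against HO (limma, adjusted p), where 1 of 13831 genes, or 0.00723%, did, and no other tool was run. At an unadjusted p under 0.05, 2 of the 48 (4.17%) were lower, beside 9.25% of all genes (4.64% higher and 4.61% lower): Ids at -0.21 and Scarb2 at -0.16, both with an adjusted p of 0.501. Gla's own difference was -0.16 with a 95% interval of -0.48 to 0.16 (adjusted p = 0.767), so no difference was detected between its levels with and without WNT5A. The differences were 0.00 for Ctsf (95% interval -0.15 to 0.15) and -0.02 for Fuca1 (-0.15 to 0.1). The libraries did not overlap for 1 gene that was higher, Mcoln1 at 0.12 (adjusted p = 0.557), and for 4 that were lower, Hexa, Scarb2, Atp6v0d1 and Mitf, where 13.1% of all genes did not overlap (6.31% higher and 6.75% lower).

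Small differences in this comparison leaned downward: 37 of 48 estimates were below 0 (77.1%), beside 48.7% of all genes, and the median was -0.06 beside 0. That lean moved with 1 library. HO replicate 2 had the highest summed level of the 48 genes, 2550 FPKM against 2210 to 2450 in the other 8 libraries, and a median of 0.062 above the room-air mean on the log2 scale. Without it, 27 of 48 were below 0 and the median was -0.01. Structural RNA took 27.02% of the FPKM of that library, within the 20.61% to 28.51% of all 9, and its part in these differences was not tested.

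**Figure D4:**
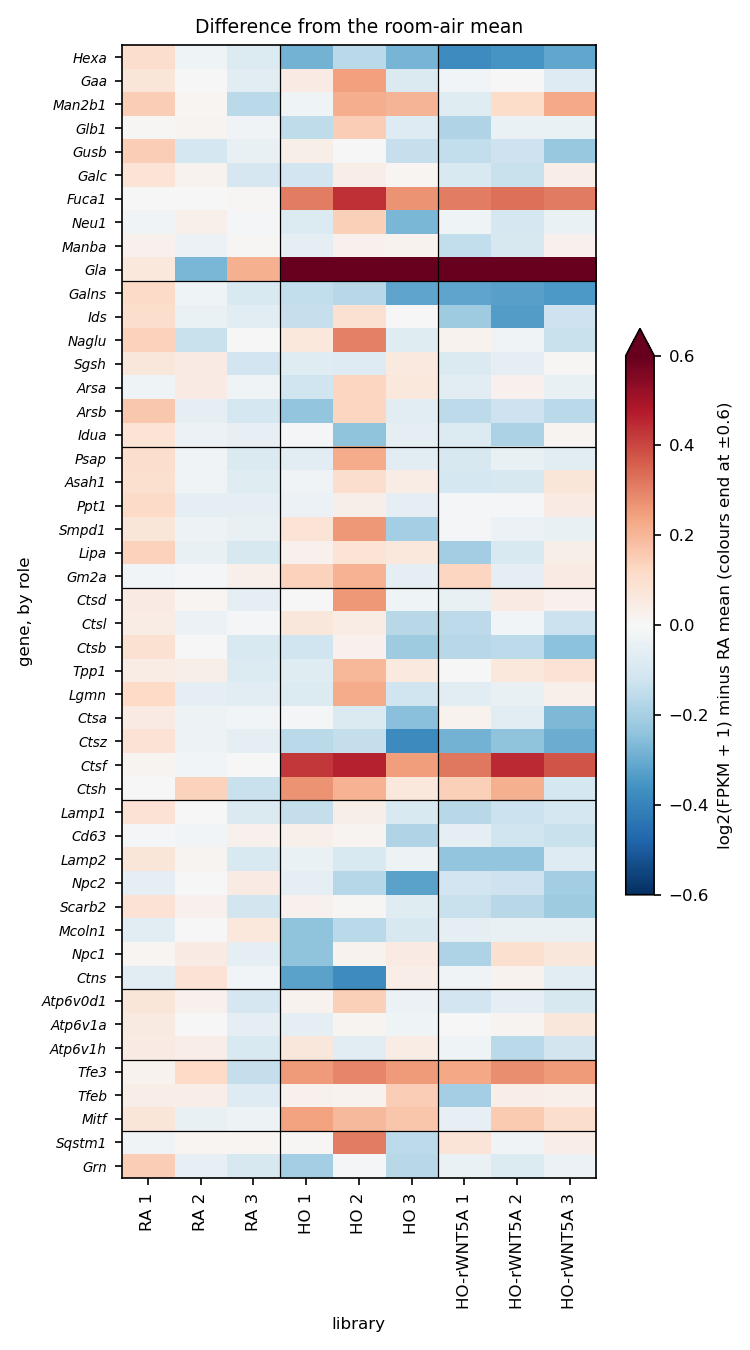
Log2(FPKM + 1) minus the mean of the 3 RA libraries for the 48 genes (rows, by role) in each of the 9 libraries (columns), red above and blue below 0, with colours ending at 0.6. Gla, Fuca1, Ctsf and Tfe3 are red in all 6 hyperoxic libraries, Hexa and Galns are blue in them, and HO 2 is redder than its neighbours over many rows.

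Hyperoxia with WNT5A was last compared with room air, which shares the RA libraries with the first comparison and the HO-rWNT5A libraries with the second. Gla, Fuca1 and Ctsf were higher, and Hexa and Galns were lower, 5 of 48 in all (10.4%) beside 4.35% of all genes tested (2.42% higher and 1.92% lower). Without Gla, 4 of 47 passed (8.51%). The log2 fold changes were 0.90 for Gla (95% interval 0.58 to 1.21, adjusted p = 0.0106, or 0.06 with no filter on low values), 0.32 for Fuca1 (0.19 to 0.44, adjusted p = 0.0175) and 0.38 for Ctsf (0.23 to 0.53, adjusted p = 0.0169). They were -0.35 for Hexa (-0.49 to -0.21, adjusted p = 0.0169) and -0.33 for Galns (-0.48 to -0.18, adjusted p = 0.0283). Passing here and not in HO against RA does not show that Hexa and Galns differed between the hyperoxic groups: their HO-rWNT5A against HO differences were -0.11 (adjusted p = 0.62) and -0.12 (adjusted p = 0.616). Ctsz and Tfe3 came next, at -0.28 (adjusted p = 0.0587) and 0.26 (adjusted p = 0.0656), neither of which passed. Ctsz passed under 8 of 24 alternatives, among them without HO replicate 2 (adjusted p = 0.0481), without HO replicate 3 (0.0173) and with FPKM as deposited (0.0205).

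The median of the 48 in HO-rWNT5A against RA was -0.05, beside 0 for all genes, and 35 of 48 were below 0 (72.9%, beside 51.3%). Without RA replicate 1, the library with the highest median of these genes, the median was -0.02 and 29 were below 0. Unadjusted p-values under 0.05 were held by 11 of the 48 (22.9%), beside 20.9% of all genes. The libraries did not overlap for 4 genes that were higher and 13 that were lower, where 32.9% of all genes did not overlap (16.2% higher and 16.7% lower). Estimates were below 0 for all 8 membrane genes, but for 7 when each library was scaled to equal protein-coding FPKM and for 6 without RA replicate 2. They were below 0 for all 7 sulfatase and heparan enzyme genes, and for 6 without RA replicate 1. Leaving out HO-rWNT5A replicate 2 ended all 5 calls, with an adjusted p of 0.0513 for Gla, 0.0773 for Fuca1, 0.0792 for Ctsf, 0.076 for Hexa and 0.104 for Galns. Without RA replicate 1 or without RA replicate 2, Gla alone passed (adjusted p = 0.0441 and 0.0374). Gla and Hexa passed without RA replicate 3 and without HO-rWNT5A replicate 3, and Gla and Ctsf without HO-rWNT5A replicate 1.

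Transcripts were looked at to see which forms carried the changes. The 48 genes had 280 annotated transcripts, of which 107 from 46 genes had a mean of at least 1 FPKM. None passed in any of the 3 comparisons, where 0.0153%, 0.0115% and 0.0382% of 26158 transcripts did (HO against RA, HO-rWNT5A against HO and HO-rWNT5A against RA). The main form of Gla, Gla-201, stood at 1.01, 0.716 and 1.17 FPKM in RA, 2.92, 4.25 and 3.22 in HO, then 3.05, 3.18 and 2.56 in HO-rWNT5A, so it carried nearly all of the gene's level in hyperoxia. For Ctsf, the coding form Ctsf-201 stood at 2.95, 2.74 and 3.7 FPKM in RA, 6.56, 8.32 and 4.46 in HO, then 4.66, 3.57 and 7.16 in HO-rWNT5A. Its HO libraries all lay above those of RA, whereas its HO-rWNT5A libraries overlapped them. The retained-intron form Ctsf-211 had 3.82, 2.87 and 2.72 FPKM in RA, 2.2, 2.14 and 3.11 in HO, then 2.96, 5.26 and 0.653 in HO-rWNT5A, overlapping throughout.

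The coding forms of Lgmn had values in opposite directions: Lgmn-201 stood at 48.4, 44.3 and 32 FPKM in RA and 27.3, 21.8 and 23.5 in HO, while Lgmn-202 stood at 1.49, 0.268 and 12.3 in RA and 16.5, 32.6 and 18.7 in HO. HO and RA did not overlap for either form, neither passed (adjusted p = 0.228 and 0.29), and the sum was level at 46.9 ± 3.57 against 47.4 ± 6.53 FPKM (SD, n = 3). How fragments shared by both forms were divided between them was not tested.

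The neighbours of Gla on the X chromosome were read beside it. Gla and Hnrnph2, which encodes an RNA-binding protein, start head to head with 53 bases between their GENCODE starts, and both TCACGTGA sites printed above lie beyond Gla's start inside the annotated Hnrnph2 gene, 47 and 14 bases past its start. Rpl36a, a ribosomal protein gene, ends 86 bases from the end of Gla. Gla shares no exon base with another annotated gene. Of the 48 genes, 18 do, Hexa among them, and 30 do not. Hnrnph2 stood at 16.6, 15.7 and 16.3 FPKM in RA, 15, 14.5 and 14.2 in HO, then 17, 14 and 15 in HO-rWNT5A, with log2 fold changes of -0.14 in HO (adjusted p = 0.308) and -0.08 in HO-rWNT5A against RA. Rpl36a stood at 57.3, 66.2 and 64.5 FPKM in RA, 71.1, 66.1 and 50.6 in HO, then 69.2, 70.5 and 67.8 in HO-rWNT5A (-0.01 in HO against RA, adjusted p = 0.965). Neither neighbour passed in any comparison, and the HO libraries of Hnrnph2 lay below those of RA.

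**Figure D5:**
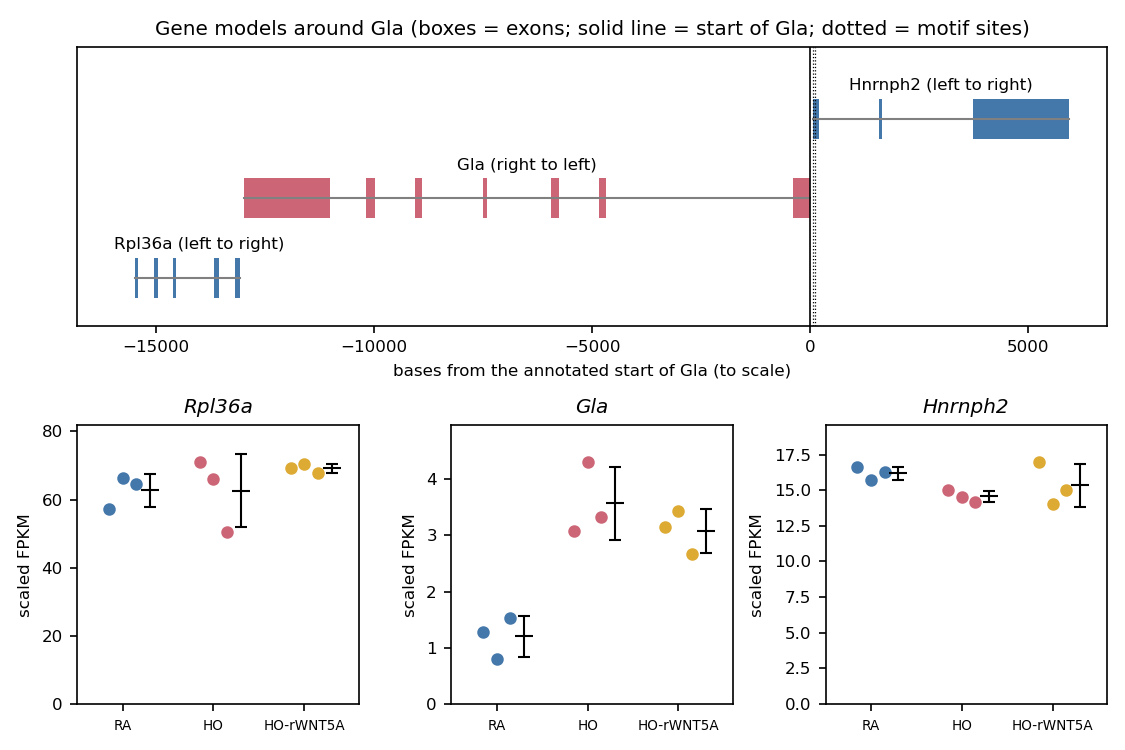
Above, the exons (boxes) of Rpl36a, Gla and Hnrnph2 by distance in bases from the annotated start of Gla, to scale, with the TCACGTGA sites dotted. Below, scaled FPKM of the 3 genes per library (points) with mean and SD (n = 3); the hyperoxic points of Gla alone lie above all of its room-air points.

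Of the other 3 listed neighbours tested, Timm8a1 (a mitochondrial import chaperone), Armcx4 and Armcx1, none passed in HO against RA, and Armcx1 was lower in HO-rWNT5A against RA at -0.34 (adjusted p = 0.0444). Its difference in HO against RA was -0.35 (adjusted p = 0.0566). The Armcx1 call was lost without any 1 of the RA or HO-rWNT5A libraries or HO replicate 1 (adjusted p = 0.0551 to 0.148). Btk was under 1 FPKM and was not tested.

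Further lysosomal lists, drawn up by function, were read in HO against RA, where 1.97% of all genes passed. Of 26 other hydrolases tested, 1 was higher (3.85%): Hyal1, a hyaluronidase, at 0.52 (adjusted p = 0.0494, past the threshold under 5 of 23 alternatives). Leaving out any 1 library but HO replicate 1 ended it, with an adjusted p of 0.0646 to 0.171. Of 18 genes that sort enzymes to the lysosome, 1 was higher (5.56%): Cln8, which carries new enzymes out of the endoplasmic reticulum, at 0.31 (adjusted p = 0.048, also 5 of 23). Leaving out any 1 library ended the Cln8 call (adjusted p = 0.0536 to 0.158). None passed among 29 other membrane proteins and carriers, 15 other V-ATPase subunits, 31 genes of mTORC1 and TFEB control, and 41 autophagy genes. The medians of these 6 lists lay between -0.03 and 0.05, beside -0.01 for all genes.

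In HO-rWNT5A against HO no gene of these lists passed. The shares past the threshold in HO-rWNT5A against RA were 1 of 26 other hydrolases (3.85%) and 1 of 29 other membrane proteins and carriers (3.45%). Of 41 autophagy genes, 2 passed (4.88%), where 4.35% of all genes did. None passed in the lists of other V-ATPase subunits, enzyme sorting, and mTORC1 and TFEB control. In HO-rWNT5A against RA, Ctso, a cathepsin, was lower at -0.34 (adjusted p = 0.0486), and Slc36a1, an amino acid exporter of the lysosome, was higher at 0.34 (adjusted p = 0.0473). In autophagy, Atg7, which activates ATG12 and LC3, was lower at -0.44 (adjusted p = 0.0256), and Bnip3, a mitophagy receptor, at -0.57 (adjusted p = 0.0246). Atg7 stood at 11.1, 12.5 and 9.54 FPKM in RA, 8.66, 9.3 and 8.03 in HO, then 7.7, 8.04 and 7.73 in HO-rWNT5A. Bnip3 stood at 9.08, 7.48 and 6.27 FPKM in RA, 6.27, 7.06 and 5.82 in HO, then 4.42, 4.99 and 4.86 in HO-rWNT5A. The HO-rWNT5A libraries of Bnip3 lay below every RA and HO library, while those of Atg7 overlapped HO. Their differences from HO were -0.36 and -0.13 and did not pass (adjusted p = 0.497 and 0.678). The calls of Atg7 and Bnip3 were lost without RA replicate 1, RA replicate 2 or any 1 HO-rWNT5A library (adjusted p = 0.0787 to 0.092 and 0.0693 to 0.0817). The Ctso call was lost without any 1 RA or HO-rWNT5A library (0.0962 to 0.164), and that of Slc36a1 without RA replicate 2, RA replicate 3 or any 1 HO-rWNT5A library (0.112 to 0.15).

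Spread between the libraries of a group was taken as an SD. As log2 values, the 48 genes had a median SD of 0.078 (RA), 0.116 (HO) and 0.051 (HO-rWNT5A), beside 0.074, 0.123 and 0.083 for all genes. A rough estimate of depth, from the steps of low FPKM values, was 21300000 to 26500000 fragments per library.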

How the data were processed

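Total RNA of 9 libraries of labelled PMVECs was sequenced. Per the labels' protocols, the authors trimmed reads with Skewer 0.2.2, aligned them with STAR 2.5.3a, assembled transcripts with StringTie 1.3.1 and annotated them with gffcompare 0.9.9c. Builds hg38 and mm10 are both named, with no role, in the submitters' processing notes, as are DESeq2 and FastQC 0.11.2. The deposited values are FPKM for 143043 transcripts, 99.36% of whose Ensembl identifiers matched GENCODE M21 (GRCm38). Gene counts were not used, so no count model was fitted, and whether counting used strand is not given in the sources used here.

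FPKM was summed per gene and scaled by the median ratio to the geometric mean. Genes averaging 1 FPKM or more were fitted on log2(FPKM + 1) in limma 3.58.1 (R 4.3.3), all 9 libraries in 1 model with a variance trend, two-sided, Benjamini-Hochberg adjusted, threshold 0.05. This scale understates changes of low genes, and a sum over transcripts includes retained introns. Transcripts were fitted likewise. Sequences come from RefSeq (GRCm38.p6), where 42 of the 48 genes were found. Python 3.11.15 was used, with matplotlib 3.10.9 for plots and numpy 2.4.6 and pandas 2.3.3 for tables.

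The members, lists and tests were chosen with earlier results of these data known. Values per library were given for Gla, the TFEB family, Lamp1, Ctsd, genes past the threshold, and, per role, the 2 with the smallest p in HO against RA and the most abundant; Lgmn's transcripts were picked after their values were seen. From the other lists, genes past the threshold and the neighbours of Gla were named. An exact permutation test of 3 against 3 was not used. Alternatives were other pseudocounts, filters, scalings, variance models, the 2 groups alone, a replicate block, other transcript sums and each library left out, and, added after seeing the data, HO replicates 2 and 3 left out together, where the lone HO library is assumed to vary like the other groups.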

Additional observations from a re-analysis of the deposited data

How the results depend on the processing

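Gla kept its direction under all 23 alternatives that tested it in HO against RA (log2 fold change 0.46 to 1.52) and passed under 19, and Fuca1 and Ctsf kept theirs under 24 and passed under 17 and 13. No called gene changed sign, whereas 24 of 69 uncalled named values did under some alternative. In HO against RA, 3 of the 48 genes passed, but 1 with no filter on low values (Fuca1), 1 each with equal total FPKM, the 2 groups alone and protein-coding transcripts alone (Gla), 0 with HO replicate 1 alone, where the spread comes from the other groups only, and 0 to 4 with a library left out. In HO-rWNT5A against RA, 5 passed, but 3 with no filter, 2 with equal totals and 0 to 6 with a library left out. With protein-coding transcripts alone, 4 passed: Gla was higher, and Hexa, Galns and Arsa were lower. Arsa stood at -0.56 in that fit (adjusted p = 0.0423), while Fuca1 and Ctsf did not pass. Fewer genes passed without a filter, where more were tested; the cause of the other shifts was not tested.

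Over all genes in HO against RA the 273 calls became 74 with no filter, 56 with equal totals, 70 with the 2 groups alone, 148 with protein-coding transcripts alone, 20 with HO replicate 1 alone and 2 to 697 with a library left out (2 without RA replicate 2, 697 without HO replicate 3). In HO-rWNT5A against RA the 601 calls became 224, 257 and 1345 with no filter, equal totals and the 2 groups alone, 1359 with HO replicate 1 alone and 125 to 1030 with a library left out (125 without RA replicate 1, 1030 without HO replicate 3). In HO-rWNT5A against HO the 1 call became 0 with no filter or HO replicate 1 alone, 3 with the 2 groups alone and 1 to 32 with a library left out (32 without HO replicate 3). Scaling moved the split of calls: 164 higher and 109 lower in HO against RA became 103 and 179 with FPKM as deposited, 26 and 30 with equal totals, and in HO-rWNT5A against RA 335 and 266 became 209 and 615, and 93 and 164.

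Whether replicate numbers shared by groups pair the libraries is not stated. Correlations of same-numbered deviations ran from -0.12 to 0.28, and 3 of 9 exceeded 0.1. Those of other-numbered libraries ran from -0.25 to 0.17. With 3 libraries per group, these values cannot settle whether the libraries were paired. With a replicate block, 123, 2 and 394 genes passed in HO against RA, HO-rWNT5A against HO and HO-rWNT5A against RA, and 2, 0 and 5 of the 48 (Ctsf lost its call in HO against RA, adjusted p = 0.052). Gla's call rests on roughly 53 to 98 fragments per RA library.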
